A study of Mus musculus with 38 samples.

Results

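H3K27me3, trimethylation of lysine 27 on histone H3, was mapped in mouse liver by chromatin immunoprecipitation and sequencing, and the male list of enriched islands was set against the female list. The study mapped 6 histone marks, in liver from CD-1 mice of both sexes, all 8 weeks old and with no treatment named in the labels. CD-1 is an outbred stock. For H3K27me3 the antibody was ab6002 from Abcam, and each sex had 3 libraries. The files of the 3 libraries of a sex were identical, so each sex gave 1 pooled list, with no spread between animals and no test between them. The lists held 20048 male and 19506 female islands on the 19 autosomes, 39554 of the 384017 peaks and islands of the whole series, and every one was used. The sex chromosomes were not analysed here. An island is a run of windows of 400 bp joined over gaps of up to 2400 bp, and coordinates are those of build mm9.

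H3K27me3 is written by Polycomb repressive complex 2, through its methyltransferases EZH1 and EZH2, and is found over silent genes in broad domains. Its best known targets are the CpG-rich promoters of developmental regulators in tissues where these are not used. In mouse liver many genes of steroid and drug metabolism are expressed at different levels in males and females, largely under the control of the sex-dependent secretion of growth hormone.

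Promoter sequences are shown for 4 genes whose start lay in an island that the authors called higher in males, and for 2 developmental regulators whose start lay in islands of both lists. They are the called genes with the largest ratio of male over female signal and the regulators with the largest male enrichment over control. Each is 300 bases of RefSeq sequence from GRCm38.p6, from 250 bases before the start to 50 after it, written 5′ to 3′ along the gene, with every CG dinucleotide in capitals. The window was located in mm9 by IgG control reads that match it exactly. Slc22a26, of the organic anion transporter family, lies at chr19:7877109-7877408 (minus strand). Sult2a5, a sulfotransferase of the hydroxysteroid type, lies at chr7:14209067-14209366 (plus strand). Cyp2c69, a cytochrome P450, lies at chr19:39961211-39961510 (minus strand), and Sult3a2, a sulfotransferase of another subfamily, lies at chr10:33501873-33502172 (minus strand). The homeobox genes Barhl1 and Evx2 lie at chr2:28772140-28772439 (minus strand) and chr2:74497566-74497865 (minus strand).
Slc22a26: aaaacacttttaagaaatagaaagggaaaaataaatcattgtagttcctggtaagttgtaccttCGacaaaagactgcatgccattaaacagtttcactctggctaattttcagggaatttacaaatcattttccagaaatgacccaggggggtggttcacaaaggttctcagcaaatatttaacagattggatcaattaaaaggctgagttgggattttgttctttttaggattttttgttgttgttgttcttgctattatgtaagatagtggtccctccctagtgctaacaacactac
Sult2a5: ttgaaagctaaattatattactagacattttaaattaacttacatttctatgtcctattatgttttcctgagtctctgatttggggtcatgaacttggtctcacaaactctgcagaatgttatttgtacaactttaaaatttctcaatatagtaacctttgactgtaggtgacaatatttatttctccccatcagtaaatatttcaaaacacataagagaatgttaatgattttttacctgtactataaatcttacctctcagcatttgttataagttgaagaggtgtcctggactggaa
Cyp2c69: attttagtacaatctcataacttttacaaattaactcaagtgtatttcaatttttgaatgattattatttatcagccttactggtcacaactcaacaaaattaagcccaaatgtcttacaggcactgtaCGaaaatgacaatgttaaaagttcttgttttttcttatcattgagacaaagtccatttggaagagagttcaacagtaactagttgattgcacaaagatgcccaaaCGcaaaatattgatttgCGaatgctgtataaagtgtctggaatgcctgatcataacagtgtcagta
Sult3a2: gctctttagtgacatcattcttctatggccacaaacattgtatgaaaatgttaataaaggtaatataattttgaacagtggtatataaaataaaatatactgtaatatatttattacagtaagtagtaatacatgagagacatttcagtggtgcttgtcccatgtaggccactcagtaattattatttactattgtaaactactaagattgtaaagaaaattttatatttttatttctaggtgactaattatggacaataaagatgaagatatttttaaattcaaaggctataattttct
Barhl1: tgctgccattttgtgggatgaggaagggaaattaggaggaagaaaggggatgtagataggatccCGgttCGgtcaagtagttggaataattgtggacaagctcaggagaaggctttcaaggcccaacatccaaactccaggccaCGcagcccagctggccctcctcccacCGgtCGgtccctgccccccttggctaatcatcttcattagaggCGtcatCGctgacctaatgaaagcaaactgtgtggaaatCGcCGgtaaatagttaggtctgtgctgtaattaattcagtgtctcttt
Evx2: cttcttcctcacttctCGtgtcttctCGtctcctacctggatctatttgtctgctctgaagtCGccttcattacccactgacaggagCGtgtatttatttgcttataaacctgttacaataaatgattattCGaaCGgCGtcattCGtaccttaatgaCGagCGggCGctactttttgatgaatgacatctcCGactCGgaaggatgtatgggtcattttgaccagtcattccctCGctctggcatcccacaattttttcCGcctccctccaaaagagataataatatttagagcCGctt
The 4 promoters of the called genes held 1, 0, 3 and 0 CG dinucleotides, and those of Barhl1 and Evx2 held 9 and 16.

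The lists covered nearly equal lengths of the genome. Male islands covered 565.3 Mb and female islands 579.4 Mb, with a median width of 21600 bp in both. Islands held 15305301 male and 16904292 female reads, and 5084948 and 5156331 control reads. The median island held 26.1 reads per kb in males and 27.3 in females, against 9.07 and 9.03 control reads per kb. The authors' fold enrichment over control, each island's own deposited value, had a median of 1.49 among male and 1.56 among female islands. The female list had more of the broadest islands, with 492 of 100 kb or more (71.7 Mb) against 309 (43.3 Mb). It also had more of the strongest, with 261 islands of 3-fold or more over control against 55. The female list also held more reads, and the male and female libraries share no code. The part of depth or of the libraries in these differences was not tested. In whole liver, a mark in fewer cells and less mark per cell cannot be told apart.

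The longest island of both lists lay in the same place, between Tex29 and Tubgcp3, as chr8:12134800-12632399 in males (497600 bp, 17757 reads) and chr8:11937600-12638799 in females (701200 bp, 35290 reads). The female island joined what the male list gave as 3. By the authors' deposited table the male island's log2 ratio of male over female signal was -0.32 and the female island's -0.34. The broad island on chromosome 13 was nearly the same in both, chr13:45222400-45637999 in males and chr13:45222400-45639599 in females, with 14430 and 19955 reads and a log2 of -0.35 in both lists of the authors' deposited table.

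Most of the marked genome was shared. Bases in islands of both lists came to 414.3 Mb, which is 73.3% of the male and 71.5% of the female covered length and 56.7% of the 730.4 Mb in either. Islands with no partner in the other list, by an overlap of 1 bp or more, made up 19.5% of male and 21.2% of female islands (3911 and 4139). These islands held 76.1 Mb in males and 71.6 Mb in females. Of the male islands with a partner, 13582 had 1, 2289 had 2 and 266 had 3 or more. Joined into regions, the islands of both lists gave 20556 regions, of which 12506 held both sexes.

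Islands in 1 list only were narrower and weaker than shared ones. The median width was 17200 bp for male-only against 23600 bp for shared male islands, and 15600 bp for female-only against 24400 bp for shared female islands. The share without a partner was 26.7% (95% interval 24.0 to 29.5) of male islands under 10 kb and 28.4% (27.4 to 29.4) of those of 10 to 20 kb, and fell to 0.971% (0.201 to 2.81) of those of 100 kb or more. In the female list it fell from 43.1% (40.4 to 45.7) of islands under 10 kb to 0 of 492 at 100 kb or more, which allows a share of up to 0.747%. By enrichment, the share fell from 47.3% (44.4 to 50.3) of male islands under 1.2-fold to 5.98% (4.99 to 7.08) at 2- to 3-fold, and from 41.6% (38.2 to 45.0) to 9.31% (8.32 to 10.4) in females. These exact Clopper-Pearson intervals cover counting error only. By the rule of 1 bp, a wider island more easily meets an island of the other list, and a weak one lies nearer the caller's threshold. Both falls are therefore in part set by the rules, and the size of that part was not tested.

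**Figure D1:**
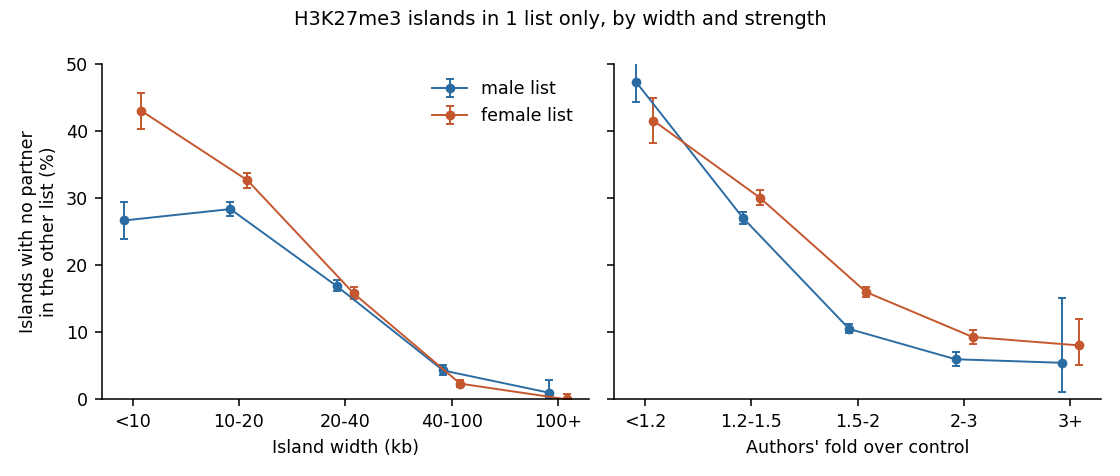
Percentage of H3K27me3 islands with no partner in the other list, by island width in kb (left) and by the authors' fold over control (right). Points are 1 pooled list per sex and bars are exact 95% binomial intervals; the share falls with width in the female list from 43.1% to 0%, and in the male list from 26.7% under 10 kb and 28.4% at 10 to 20 kb to 0.971%.

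The males' own islands stood further from the other sex than the females' own. A male-only island lay a median of 36400 bp from the nearest female island, and a female-only island 21200 bp from the nearest male one. Of the male-only islands 27.8% lay more than 100 kb away, against 14.3% of the female-only ones. From the authors' deposited table the log2 of male over female signal was above 0 in 99.8% of male-only islands, with a median of 0.36. Per the authors' deposited table the female-only islands had a median of -0.11, and 21.7% of them were above 0. Shared islands had a median of 0.06 in the male list (64.3% above 0) and -0.02 in the female list (45.1%), per the same source. Islands in 1 list only were picked for presence in that list, which in part sets the sign of their log2. Male-only islands lay in sequence with more IgG reads and a lower GC content. Their median IgG density was 1.19 times the autosomal mean (shared male islands 0.973, female-only 1.05) and their median GC content 38.0% (42.0% and 40.6%). The part of base composition in these lists was not tested.

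At the edge of the overlap rule, islands differed by 1 window. The male islands with the smallest overlaps shared 1 window of 400 bp with a female island, for example chr1:60062800-60078399 (log2 0.34 per the authors' deposited table). The nearest without a partner touched one with no base between, for example chr1:98781600-98797999 (log2 0.7 per the authors' deposited table). Of the partnered islands, 91.4% of male and 89.6% of female ones had 50% or more of their width overlapped. Asking for 50% of both islands raised the counts to 10230 male-only and 9688 female-only. Keeping only islands with a p-value over control of at most 1e-10 lowered them to 1542 of 14440 (10.7%) and 2161 of 14897 (14.5%).

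The sexes differed most in coverage on chromosome 18. There the male list had 574 islands over 14.5 Mb and the female list 374 over 9.1 Mb, a ratio of covered length of 1.59. Of the islands on chromosome 18, 247 of the 574 male ones had no female partner (interval 38.9% to 47.2%) and 47 of the 374 female ones had no male partner (9.4% to 16.4%). Chromosomes 15 and 16 followed, with length ratios of 1.22 and 1.15 and with 249 and 226 male-only islands against 112 and 129 female-only ones. On 13 chromosomes the female list covered more, with the lowest ratios on chromosomes 9 (0.912) and 1 (0.915). Over the span from the first to the last IgG read, islands covered most of chromosomes 11 (29.5% in males, 31.7% in females) and 9 (28.4% and 31.2%), and least of 18 (16.5% and 10.3%) and 12 (17.6% and 16.8%). Median IgG density in islands of chromosome 18 was 0.946 for males and 0.899 for females. Without chromosome 18 the list-wide shares without a partner were 18.8% and 21.4%, a setting chosen after the data were seen.

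**Figure D2:**
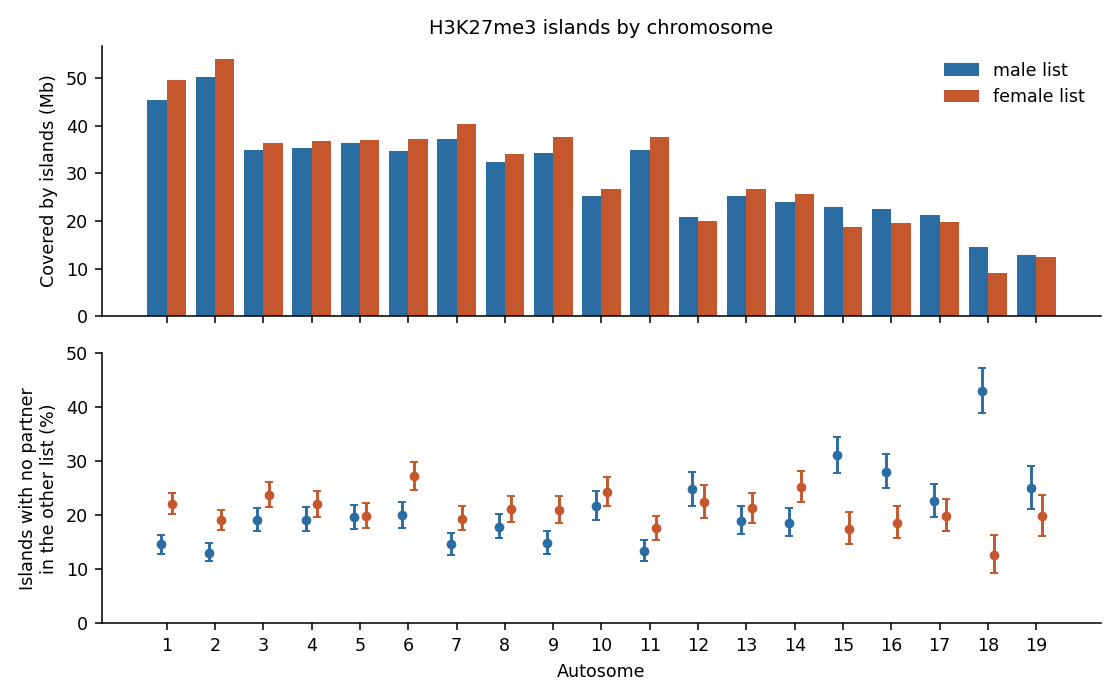
Megabases covered by islands of each list (top, bars from 0) and percentage of islands with no partner in the other list (bottom, points with exact 95% binomial intervals) for each of the 19 autosomes. On chromosome 18 the male list covers 14.5 Mb and the female list 9.1 Mb, and 247 of 574 male islands have no partner.

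Where an island of each list had the other as its only partner, the sexes were close. These 8736 matched pairs were compared by reads over control reads, each as a share of its list's total, as a log2 of male over female. The median was 0.043 (95% interval 0.038 to 0.048), and 96.9% of pairs lay within 0.5 of 0. That interval is taken over islands of 1 pooled list per sex and does not measure spread between animals. Only 3 pairs reached 1 (0.0343%) and 5 reached -1 (0.0572%). Pairing leaves out islands found in 1 list only, so these values hold for paired islands alone. By the authors' deposited table, 153 of 162 regions called higher in males and 6 of 8 called higher in females held no island of the other list. The 129 pairs of equal coordinates had a median of 0.003 and equal control reads in all 129, so both lists used the same control.

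The difference between the 2 pooled lists followed strength. The median was 0.11 in pairs whose mean fold over control was under 1.2, 0.01 at 1.5- to 2-fold, -0.07 at 2- to 3-fold and -0.26 in the 74 pairs of 3-fold or more. It also followed the borders drawn: it was 0.222 in the 591 pairs with a female island at least 2 times as wide, and -0.084 in the 567 with a male island at least 2 times as wide. The fold classes rest on the same reads as the log2, so they are not independent of it. The part of the libraries in these trends was not tested. By chromosome the medians were highest on 18 (0.12, 0.08 to 0.16), 16 (0.1, 0.08 to 0.11) and 15 (0.08, 0.06 to 0.1), the 3 chromosomes with the largest ratios of male over female covered length. Their intervals are also taken over islands and hold no spread between animals.

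**Figure D3:**
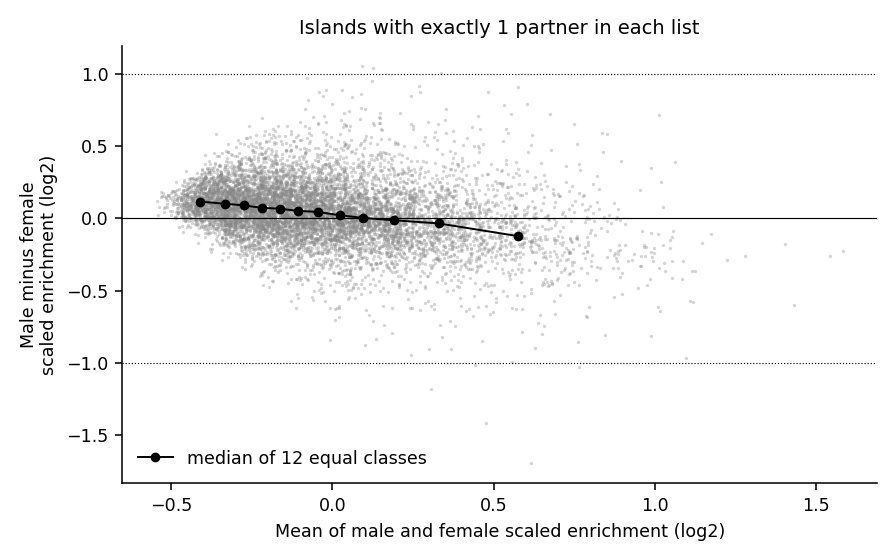
Male minus female scaled enrichment (log2) of the 8736 matched islands against their mean scaled enrichment (log2), with the median of 12 classes of equal size. Of all pairs 96.9% lie within 0.5 of 0, and the class medians fall from above 0 at weak islands to below 0 at strong ones.

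The largest differences among matched islands were few and had named places. At chr2:77842000-77850799 the male island held 730 reads and the female island 2575, with 285 control reads in each. The log2 was -1.7 (interval -1.82 to -1.58). The intervals of this pair and of the Hsd3b1 pair below hold counting error of the sample reads only, with control reads taken as fixed. At chr2:77808000-77835599 next to it the counts were 2210 and 6437, a log2 of -1.41. Both places lay above 20 control reads per kb, against a median of 9.17 over all regions. On the male side, the island over Hsd3b1, which encodes a hydroxysteroid dehydrogenase, held 1166 reads over 256 control reads in males (chr3:98641200-98667199). Its female partner held 347 over 135 (chr3:98637600-98652799), a log2 of 0.95 (0.77 to 1.13). The pair at chr4:88272400-88276799, near interferon alpha genes, had a log2 of 1.05, but its female island was 15200 bp wide against 4400 bp. By the authors' deposited table that male island had a log2 of -0.09.

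Regions that the authors called different between the sexes were nearly all higher in males. Their rule was an absolute log2 of at least 1 with a p below 0.001. By the authors' deposited table, 162 of the 20556 merged regions were called male (0.788%) and 8 female (0.0389%). Of the male-called regions 153 held no female island. From the authors' deposited table their log2 ran from 1.0 to 3.7 around a median of 1.33, and 31 reached 2 or more. At a log2 of at least 1.5, the counts per the authors' deposited table were 57 and 1.

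Most male-called regions had another close by. By a distance of 500 kb, 104 of the 162 fell into 23 groups and 58 stood alone. Chromosome 19 had the highest share of its regions called male (4.61%), then chromosome 7 (2.21%). The 4 largest groups, of 14, 12, 9 and 9 regions, lay at the Sult2a, Cyp2c, Slc22a and Cyp2b genes. Of the next, with 6 regions each, one lay at the Cyp3a genes and the other between Akr1d1 and Trim24. Reads in such gene families can map to near-identical copies, so which copy carries the mark is uncertain.

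The largest group had 14 regions over 784.8 kb at the Sult2a genes, sulfotransferases of steroids and bile acids (chr7:14136000-14920799). Male islands in the group held 8526 reads over 2283 control reads, and the female list had no island in those regions. Per the authors' deposited table the log2 there had a median of 1.38 and reached 2.46 in the island over the start of Sult2a5. The start of Sult2a3 lay in another island of the group, with a log2 of 1.82 per the authors' deposited table.

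The group at the Cyp2c genes, cytochromes P450 of drug and steroid metabolism, had 12 regions (chr19:39556800-40077999) with 4904 male reads over 1291 control reads. Its median log2 per the authors' deposited table was 2.17. The start of Cyp2c69 lay in an island of 497 reads over 99, with a log2 of 2.32 per the authors' deposited table. On the same chromosome, 9 regions with a median log2 of 2.2 per the authors' deposited table lay at chr19:7797600-8341199, between Slc22a19 and Slc22a8. The island over the start of Slc22a26 held 972 reads over 312, with a log2 of 2.48 per the authors' deposited table.

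The Cyp2b group had 9 regions between Cyp2s1 and Cyp2a4 (chr7:26624400-27087599), with 7994 male reads over 2101 control reads and a median log2 of 1.9 per the authors' deposited table. The placed starts of Cyp2b10 and Cyp2b13 lay between these islands and in none of them. The Cyp3a group had 6 regions (chr5:146181200-146624799) with a lower median log2 of 1.1 per the authors' deposited table. There the island over the start of Cyp3a44 held 599 reads over 162, with a log2 of 1.94 per the authors' deposited table. The island over Cyp3a16 held 1271 over 368, and its log2 of 0.94 per the authors' deposited table was under the call.

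Other groups lay at single genes or between genes. The group at Hsd3b1 and Hao2, a peroxisomal oxidase of hydroxy acids, held the male-only island with the lowest p-value, at chr3:98670800-98703199 over the start of Hao2. It had 1793 reads over 359 and a log2 of 2.06 per the authors' deposited table. The start of Sult3a2 lay in an island of 1622 reads over 482, with a log2 of 2.11 per the authors' deposited table. Fmo2 and Fmo6, flavin-containing monooxygenases, shared 1 island of 2485 reads over 869, with a log2 of 1.32 per the authors' deposited table.

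A group of 6 regions lay between Akr1d1 and Trim24, a transcriptional coregulator, at chr6:37556800-37799999 (4160 male reads over 1518, median log2 1.44 per the authors' deposited table). Another 5 lay between Pheta1 and Pptc7 (chr5:122309200-122589199), with 8725 male reads over 2140 and a median log2 of 1.41 per the authors' deposited table. Female islands in that group held 2621 reads, in the region chr5:122428800-122589199, where male islands held 5495. RefSeq lists Cux2, a homeobox repressor known for female-predominant expression in mouse liver, and 6 other protein-coding genes between Pheta1 and Pptc7. Between Cyld and Chd9, on both sides of Sall1, a zinc finger transcription factor, 5 regions had a median log2 of 1.19 per the authors' deposited table (chr8:91456800-92109999). None held the start of Sall1, and the nearest ended 97262 bp from it. Islands of that group held 12299 male and 1464 female reads. Pparg, a nuclear receptor of lipid storage, started in a region with a log2 of 1.4 per the authors' deposited table. The regions at Pnpla3, a lipid hydrolase, and Kyat3, a kynurenine aminotransferase, had 1.44 and 1.55 per the authors' deposited table.

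**Figure D4:**
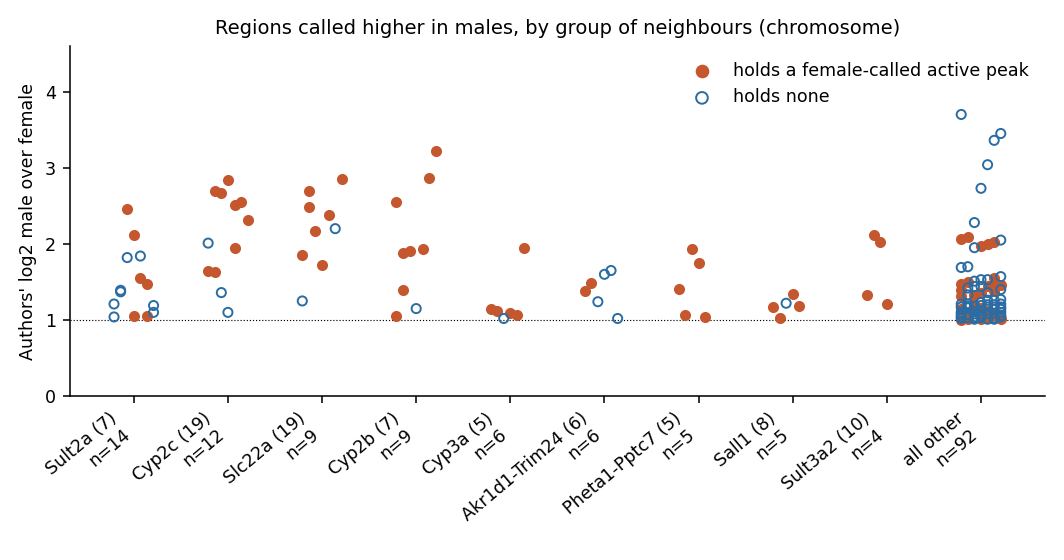
Log2 of male over female signal, from the authors' deposited table, for the 162 male-called regions (points), in the 9 largest groups of neighbours within 500 kb and all others; filled points hold a peak of an active mark called higher in females. The dotted line is the call at 1; the Cyp2c and Slc22a groups have medians of 2.17 and 2.2 and the Cyp3a group 1.1.

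Of the 10 male-called regions with the largest log2 per the authors' deposited table, 5 lay in the Cyp2b, Slc22a or Cyp2c groups, up to 3.22 at chr7:26959200-26975199. The others stood apart from those families, and 4 had over 20 control reads per kb, against a median of 9.17 over all regions. They include the largest, chr3:28774400-28775199, with 73 reads over 22 in 800 bp and a log2 of 3.7 per the authors' deposited table. They also include chr17:36617600-36622399, near H2-M10.4, with 615 reads over 252 and a log2 of 3.45 per the authors' deposited table. Above that control density lay 8 of the 162 male-called and 3 of the 8 female-called regions, a limit chosen after the data were seen. The part of repeated or extra copies in these values was not tested.

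Of the 8 female-called regions, 3 lay in 1 stretch of chromosome 2 at Cwc22, a splicing factor. The female-only island over its start, chr2:77705600-77789999, held 11382 reads over 2809 (33.3 control reads per kb), with a log2 of -1.08 per the authors' deposited table. The other two were matched with male islands, at a log2 of -1.42 and -1.69 per the authors' deposited table. All 3 lay above 20 control reads per kb and held male calls of active marks. The remaining 5 held no placed gene start and had a log2 from -1.01 to -1.29 per the authors' deposited table. Among these 5, chr17:36289200-36303599 had the most reads per control read, 428 over 40.

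Peaks of active marks that the authors called higher in females lay in many of the male-called regions. Of the 162, 80 (49.4%) held a female call of H3K4me1, H3K4me3, H3K27ac or H3K36me3 per the authors' deposited table, against 4.35% of all regions. A male call of these marks lay in 19 (11.7%), against 4.99%. By mark per the authors' deposited table, female calls lay in 57 for H3K27ac (0.953% of all regions), 55 for H3K4me1 (3.63%), 28 for H3K36me3 (0.195%) and 23 for H3K4me3 (0.306%). For H3K9me3, another mark of silent chromatin, the authors' deposited table had 0 female calls and 13 male calls there (0.637% and 1.06%). A female call of an active mark lay in 8 of 9 regions of the Cyp2b group, 9 of 12 of the Cyp2c group, 7 of 9 of the Slc22a group and 5 of 6 of the Cyp3a group. It lay in 6 of 14 regions of the Sult2a group and 2 of 6 between Akr1d1 and Trim24. Among the 8 female-called regions, 3 held a male call of an active mark and 1 a female call, per the authors' deposited table.

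With called islands included, islands of 1 list held H3K4me3, H3K4me1 and H3K9me3 peaks of their own sex in a smaller share than shared ones. Male peaks of H3K4me3, a promoter mark, lay in 3.5% (95% interval 2.9 to 4.1) of male-only and 11.5% of shared male islands. Among islands of 10 to 40 kb the values were 3.2% and 9.6%. Female H3K4me3 peaks lay in 7.1% (6.3 to 7.9) of female-only and 14.5% (13.9 to 15.0) of shared female islands. At 10 to 40 kb they were 7.0% and 11.5%. For H3K4me1 the shares were 15.4% and 30.4% in males (14.3% and 25.4% at 10 to 40 kb), and 21.0% and 35.5% in females (20.7% and 29.6%). For H3K9me3 they were 14.2% and 33.1% in males (14.4% and 28.4%), and 25.3% and 38.9% in females (25.9% and 33.1%). H3K36me3, a mark of transcribed gene bodies, lay in 2.9% of male-only and 4.2% of shared male islands of 10 to 40 kb for male peaks. In the female list H3K36me3 was nearly equal in both classes at that width for female peaks, and in the reverse order for male peaks. Its female peaks lay in 4.3% of female-only and 4.4% of shared female islands of 10 to 40 kb, and its male peaks in 5.8% and 4.9%. Peaks per Mb of H3K36me3 were higher in female-only than in shared female islands, 2.69 against 1.72 for female peaks. Male H3K27ac peaks were also denser there, at 7.27 against 5.37 per Mb. H3K27ac of females lay in 7.8% of male-only and 9.8% of shared male islands, with 6.3 and 4.46 peaks per Mb and 0.999% and 0.583% of their bases covered.

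Gene starts were placed for 8192 of 20665 protein-coding genes of RefSeq, and only these enter the counts that follow. Of them 1445 lay in islands of both lists (17.6%), 275 in a male island only (3.36%), 368 in a female island only (4.49%) and 6104 in none. In male-called regions lay 14 (0.171%), and in female-called ones 1, Cwc22 (0.0122%).

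The labelled tissue was checked against marker genes. None of the 7 placed markers of hepatocytes, the main cell of the liver, had its start in an island, among them Alb (albumin), Apoa1 and Hnf4a. Of the 30 placed genes of the wider hepatocyte list, 0 lay in an island. Among all 8192 placed genes, 6104 also lay in no island and 1445 lay in both lists. Markers of other liver cells were in islands of both lists: Stab2 of sinusoidal endothelium, Clec4f and Cd5l of Kupffer cells, Lrat of stellate cells, and Epcam and Cftr of bile duct cells. Ptprc, of leukocytes, lay in a female island only, with 3342 reads over 1277 and a log2 of -0.16 per the authors' deposited table. Cd79a of B cells and Spp1 of bile duct cells lay in none.

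Genes known for higher expression in female liver were the group most often in a male island only. Of 41 listed, 17 were placed. Of these, 8 lay in a male island only, 1 in both, 0 in a female island only and 8 in none. Over all placed genes 3.36% lay in a male island only and 0.171% in male-called regions. The list was chosen with earlier results of these data known. The 8 were Cyp3a16, Cyp3a44, Cyp2c69, Sult3a2, Fmo2, Hao2, Slc22a26 and Hsd3b1, and all but Cyp3a16 lay in male-called regions. The start of Hsd3b1 lay outside the female island that overlaps its male island. Vldlr, a lipoprotein receptor, lay in both, with 1946 reads over 606 in 70800 bp in males and 509 over 150 in 20000 bp in females. By the authors' deposited table the male island's log2 was 0.71 and the female island's 0.39. Cyp2b10, Cyp2b13, Cyp2a4, Cyp3a41b, Fmo4, Prlr, Acot3 and Trim24 had no island at the start, although Cyp2b10 entered the male-only count within 1000 bp.

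Of 37 genes known for higher expression in male liver, 19 were placed. No island of either list held the start of 18 of them, and this also holds for 6104 of all 8192 placed genes. Those without an island included Hsd3b5, Slco1a1, Cyp2d9 and the major urinary protein gene Mup7. The exception, Moxd1, a monooxygenase-like gene, lay in both lists with 1039 reads over 408 in males and 1687 over 563 in females. The male and female islands had a log2 of -0.15 and -0.19 per the authors' deposited table. No placed gene of the list lay in a female island only or in a called region.

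Developmental regulators carried the mark in both sexes. All 19 placed of 111 listed lay in islands of both lists, against 17.6% of all placed genes. Hoxa5 and Hoxa13 share 1 island. That island held 11629 reads over 2566 in males and 16646 over 2734 in females, and was 291600 bp and 310000 bp wide. The median width of the 19 was 91600 bp in males and 99600 bp in females, against 31200 and 34400 bp over all 1445 genes in both. For the 19, the authors' fold had a median of 2.13 among male and 2.54 among female islands, and was higher in the female list for 16. For all 1445 the medians were 1.68 and 1.85, with 1122 higher in the female list. From the authors' deposited table the male-list log2 was below 0 for 17 of the 19, with a median of -0.22, against 814 of 1445 and a median of -0.02. Matched pairs of any kind had a median of -0.1 at a mean of 2- to 3-fold and -0.29 at 3-fold or more, per the same source. A log2 below 0 was thus not particular to the developmental regulators. Dlx1, a homeobox gene of the forebrain, had the lowest at -0.52 and Myf5, a muscle determination factor, the highest at 0.15 per the authors' deposited table.

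Neuronal and muscle genes were also mostly in islands of both lists, against 17.6% of all placed genes. Of 10 placed neuronal genes 9 lay in both, such as Grin1, a glutamate receptor subunit, with 1086 reads over 195 in males and 2010 over 297 in females. Of 8 placed muscle genes 7 lay in both, such as Ttn, titin, with 460 over 142 and 441 over 127. Of the fetal liver genes, Igf2 and Dlk1 lay in both and Afp, alpha-fetoprotein, in none. Of 6 placed genes of PRC2 and its partners, among them Eed and Jarid2, Phf19 lay in islands of both lists and the other 5 in none, against 17.6% of all placed genes in both.

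**Figure D5:**
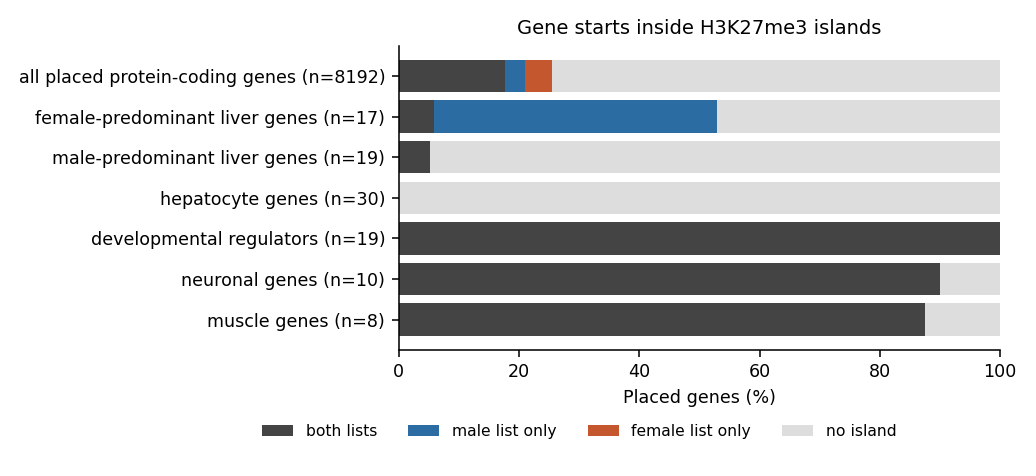
Percentage of placed genes whose start lay in islands of both lists, of the male list only, of the female list only, or in none (bars sum to 100%), with n the placed genes. All 19 developmental regulators were in both lists, 8 of 17 female-predominant genes in the male list only, and 0 of 30 hepatocyte genes in any island. Over all 8192 placed genes, 1445 were in both lists, 275 in the male list only and 6104 in none.

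The promoters in male-called regions held few CG dinucleotides, as in the sequences shown. The median count in 300 bases was 2 for the 14 genes in male-called regions, 3 for the 275 in a male island only and 6 for the 368 in a female island only. Cwc22, the gene in a female-called region, had 11. The median was 8 for those in both, 16 for those in none, 26 for the 19 developmental regulators and 14 over all 8192. The 17 placed genes of the female-predominant list had a median of 2, as did the 19 of the male-predominant list, and the 30 hepatocyte genes had 5. The motif TTCNNNGAA, which reads alike on both strands and is the core of the site of STAT factors, was found in 4 of the 14 promoters, Slc22a26 among them, and in 8.7% of all. TATAAA, searched on both strands, was found in 4 of the 14 and in 13.7% of all. In the female-predominant, male-predominant and hepatocyte genes TTCNNNGAA was found in 17.6%, 15.8% and 6.7%. The shares with TATAAA in these lists were 35.3%, 15.8% and 30.0%. A match describes these letters and is not a binding site.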

How the data were processed

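Livers of male and female mice were profiled, and each of the 12 combinations of mark and sex was used as 1 pooled list, since the deposited files of its libraries were identical. The members, gene lists and named regions were chosen with earlier results of these data known. Bowtie, SICER 1.1 and build mm9 are named in the submitters' processing notes. Per the file headers, each island has deposited counts of sample and control reads, a fold ratio over control and a p-value over control. The log2 ratio of male over female signal, its p-value and the sex call are also the authors' deposited values, and none of the sources used here gives their normalization. Peak positions of the 5 other marks were used as deposited.

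Islands were compared by overlap of 1 bp, by width and by reads over control reads, each as a share of its list total, with pandas 2.3.3, numpy 2.4.6 and scipy 1.17.1, and drawn with matplotlib 3.10.9. Islands that overlapped between the lists were joined to 1 region, which took a call when it held calls in 1 direction. Width and fold classes were set after the data were seen. The functions were tested on simulated islands. The 11201113 IgG reads of 35 bases from 1 male library, written with their sequence and mm9 position, placed 14289 of 31396 RefSeq promoter windows (GRCm38.p6) in mm9 by exact match, and 16 windows out of RefSeq order were dropped. Genes with no matching read were left out. Relative IgG density is reads per kb over the autosomal mean of 4.48.

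Named regions were the 5 sex-only islands of lowest p-value and the 5 longest per list, the 5 highest and 5 lowest matched pairs, the 10 top male-called and all female-called regions, chromosomes of extreme coverage, and islands at the edge of the overlap rule. Named genes were list members in islands of 1 sex or in called regions, up to 4 others per list, and genes placed in those regions. Alternatives were the overlap rule, island p-value, width, equal list length, read scaling, log2 threshold, peak overlap and distance to the start.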

Additional observations from a re-analysis of the deposited data

How the results depend on the processing

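Of 73 alternative values for 40 results, 39 stayed within the main value's interval or within 1.5 times its count and 34 did not, and the direction of no called value turned. With 50% reciprocal overlap, 10230 male and 9688 female islands had no partner, and with a p-value of at most 1e-10, 1542 and 2161. The median of matched pairs was 0.038 with totals over matched islands, 0.034 over merged regions, 0.003 at equal coordinates and 0 by construction when centred. Pairs at 1 or more fell to 0 at equal coordinates and 0 with at least 100 control reads, and pairs at -1 or less to 0 and 3. With an absolute log2 of at least 1.5, 57 male-called and 1 female-called regions were left per the authors' deposited table, and with at most 20 control reads per kb (chosen after seeing the data) 5 female-called ones. Asking for 50% of a peak inside the island lowered the overlaps with peaks of the same sex. In male-only islands they became 14.0% (H3K4me1), 5.7% (H3K27ac), 2.1% (H3K36me3) and 8.4% (H3K9me3), and in shared male islands 29.0%, 9.5%, 2.2% and 24.6%, with 10.5% for H3K4me3. In female-only islands they became 18.9% (H3K4me1), 5.9% (H3K4me3), 5.8% (H3K27ac), 1.7% (H3K36me3) and 14.9% (H3K9me3), and in shared female islands 34.0%, 13.3%, 8.8%, 1.3% and 29.7%. H3K36me3 then lay in 1.7% of female-only and 1.3% of shared female islands, the reverse of the order by any overlap (4.2% and 5.1%). Adding 1725 genes placed by their neighbours alone, a step chosen after seeing the data, gave 9917 genes, with 1482 in both lists, 276 in a male island only and 369 in a female island only. All 24 developmental regulators then placed were in both.

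With pooled lists, leaving out a library was not possible. No paired analysis was possible because the male and female libraries share no code and their files hold 1 pooled list per sex. The median island held 423 reads in male-only and 609 in shared male islands, and 392 and 672 in female ones, and the part of depth in this was not tested. A pooled list cannot show whether an island was present in each of the 3 libraries.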

Other observations

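Of the 5 female-only islands of lowest p-value, 2 were called female, with a log2 of -1.08 and -1.15 per the authors' deposited table, and 3 were not called. Those over the start of Flt4, a growth factor receptor of lymphatic and sinusoidal endothelium (chr11:49413600-49441199), near Ajap1 (chr4:153000800-153039599) and on chromosome 15 (chr15:85302800-85334399) had a log2 of -0.03, -0.21 and -0.16 per the authors' deposited table. They held 722, 1076 and 951 reads over 145, 243 and 214 control reads. The 5 male-only islands of lowest p-value had a log2 from 1.47 to 2.86 per the authors' deposited table.

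Some male-called groups had no placed gene start. At chr15:44497600-44691999, 4 regions held 3541 male reads over 1251 control reads, with a median log2 of 1.42 per the authors' deposited table, and 3 held a female call of an active mark. At chr3:69428000-69499199, 3 regions held 1829 over 544, with a median of 1.17 per the authors' deposited table, and 0 held such a call.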
